A study of Homo sapiens with 6 samples.

Results

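The 48 genes described here encode the proteins that license, start and carry out DNA replication, with 5 enzymes that supply its deoxynucleotides. They were taken as a fixed list of gene symbols and found on the array through the platform annotation. They are 48 of 19775 genes with a probe set of 1 symbol. All 48 were among the 12935 genes tested, that is, those with a probe set whose highest group mean lay above a signal of 79.3. RNA came from the human cell line SAS, derived from an oral squamous cell carcinoma, and was hybridised to 6 Affymetrix arrays. Cells received a control siRNA (siCtrl) or an siRNA against CYLD (siCYLD), a deubiquitinase that restrains NF-κB signalling. After 2 days of culture they spent 48 h without serum, with either DMSO (called untreated here) or an inhibitor of ALK5, the kinase receptor of TGF-β. Each siRNA had 2 untreated arrays and 1 array with inhibitor, and every group shared the cell line, a transfection and the serum-free period.

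Replication starts at origins bound by the origin recognition complex (ORC), where CDC6 and CDT1 load the MCM2-7 helicase in G1, and geminin (GMNN) blocks CDT1 afterwards. In S phase CDC45 and the GINS complex join MCM2-7 to form the active helicase, polymerase α-primase lays primers, and polymerases ε and δ extend them on the PCNA clamp, which replication factor C loads. Ribonucleotide reductase (RRM1, RRM2), thymidylate synthase (TYMS), thymidine kinase (TK1) and dUTPase (DUT) set the supply of deoxynucleotides. Many of these genes are known E2F targets that are transcribed around the G1/S transition and are low in cells that leave the cycle. TGF-β is known as a cytostatic signal in many epithelial cells.

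The labels limit what the groups can show. In their source names, the array titled siCYLD replicate 1 is a control and the array titled siCtrl replicate 2 a CYLD knockdown. Groups here follow the titles. The correlation (r) was 0.976 for the untreated arrays both titled siCtrl and 0.9755 for those both titled siCYLD. For untreated pairs that mix the titles, among them both pairs sharing a source name, r lay at 0.9665 to 0.9681. Which label is right was not tested. Nothing in the labels says that duplicates were separate cultures, so the p-values rest on a spread between arrays that may be technical. No second CYLD siRNA is named, so effects of this siRNA on other transcripts cannot be told apart from loss of CYLD. CYLD had 7 probe sets, of which 4 passed the filter. The brightest kept one gave 411 and 500 with the control siRNA and 278 and 230 with siCYLD in untreated cells, by title. With inhibitor it gave 349 against 176. Values of the other kept CYLD probe sets are not given here. Epithelial markers were high, EPCAM at 20200 to 21900 and CDH1 at 11700 to 15200, and SFN at 16400 to 20600. KRT14 stayed at or below 148. PKP1 stayed at or below 45.5 on a probe set that failed the filter, and signals of its kept probe set are not given here. Other squamous markers moved between the groups. The basal keratin KRT5 gave 900 to 1250 in untreated cells and 12500 (siCtrl) and 5600 (siCYLD) with inhibitor, rises of 3.41 and 2.56 (adjusted p = 1.66e-08 and 1.66e-07). The desmosome gene DSP was called higher in untreated siCYLD, from 10700 and 11000 to 16700 and 17500 (0.66, adjusted p = 7.77e-05), and lower with inhibitor in siCYLD, at 11200 (-0.61, adjusted p = 0.000824). Their part in the results on replication genes was not tested. The 7 squamous markers with a probe set summed to 64900 to 78500 in siCtrl and 67000 to 72100 in siCYLD arrays. Leukocyte, fibroblast and endothelial lists summed to at most 412, 920 and 976. The endothelial marker CDH5 read 587 and 462 with inhibitor and at most 63 without.

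With the CYLD siRNA, untreated cells had lower signals for most replication genes. Of the 48, 35 were called lower and 0 higher (limma, adjusted p under 0.05, 41 lower and 0 higher at unadjusted p under 0.05), while 11.8% of all tested genes were called lower and 9.49% higher. The members' median log2 difference was -0.70, against -0.04 over all tested genes. Of the called members 12 were at least 2-fold lower, a count not made over all genes. Both siCYLD arrays lay below both siCtrl arrays for 44 members, an order that 34.1% of all genes showed. For 43 of them they were the lowest of all 6 arrays, as for 17.4% of all genes. GINS4, 1 of the 43, passed the expression filter only through its inhibitor arrays. In bulk RNA a smaller share of cells in S phase and less RNA of these genes per cell cannot be told apart. The ACTB 3'/5' signal ratio, a measure of RNA and labelling quality, was 3.41 and 3.21 in these siCtrl arrays and 2.26 and 2.48 in these siCYLD arrays, and its part in the difference was not tested. The median level of the spike-in controls was higher in siCYLD, at 9.7 and 9.47 against 9.23 and 9.21 on the log2 scale, and its part was not tested.

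The count was lower in several other fits. The additive one estimates 1 siRNA difference shared by untreated and inhibitor arrays, not the untreated difference alone. With the untreated arrays grouped by source name instead of title, 0 members were called (limma, 0 at unadjusted p under 0.05), as were 0 of all genes, and 21 of the 35 differences changed sign. In an additive fit without those arrays, in which the inhibitor pair carries more weight, 6 members were called lower, namely ORC6, MCM7, GMNN, RFC3, TYMS and MCM4. Of all genes 3.79% were called lower in that fit. As plain differences between the untreated arrays whose labels agree, 47 of 48 members were lower in siCYLD, with a median of -0.65, while 55.3% of all genes were lower and their median was -0.05. Without an intensity trend in the spread 18 members were called lower, as were 4.97% of all genes. Calls of 14 members (CDT1, DUT, GINS1, GMNN, LIG1, MCM10, MCM2, ORC6, POLE2, PRIM1, RFC3, RRM2, TK1 and TYMS) held under each alternative that kept the titled groups and the group means and in which the gene was tested.

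**Figure D1:**
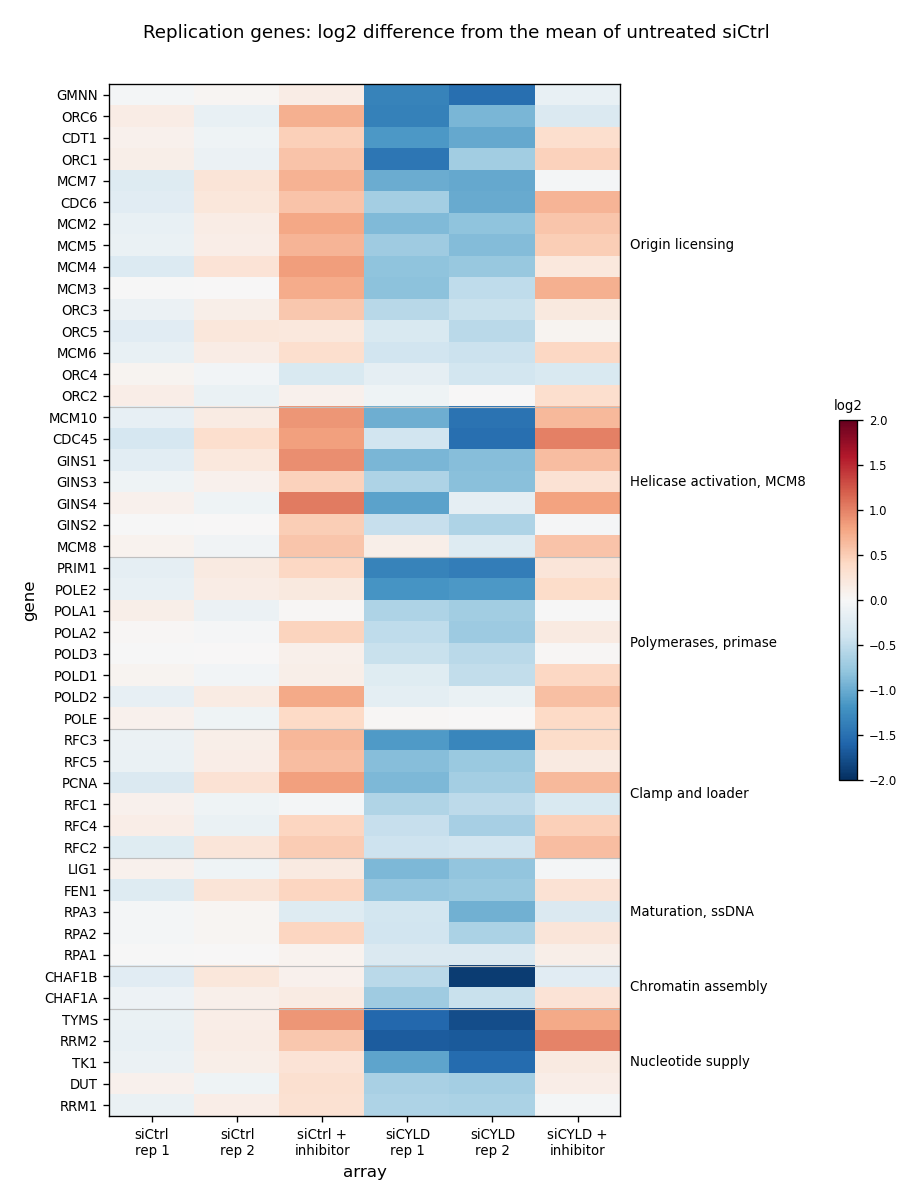
Heat map of the 48 genes (rows, grouped by role) on the 6 arrays (columns), coloured by the log2 difference from the mean of the untreated siCtrl arrays, with blue lower and red higher. Both untreated siCYLD columns were the lowest of the 6 arrays for 43 genes, and both inhibitor columns were mostly red.

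Because the genes moved together, the letters before their start sites were examined for motifs of shared cell cycle regulators. RefSeq promoter windows (GRCh38.p14) matched 42 of the 48 genes by symbol, and the 250 bases before each start were searched on both strands. The E2F-like letters TTTGGCGC, TTTCGCGC, TTTCCCGC or TTTGCCGC stood in 15 of 42 member promoters (35.7%), against 5.56% of 10447 tested genes with a window and 2.79% of all 35116 windows. They stood in 13 of 30 members called lower and 2 of 12 not called. CCAAT, the letters of the CCAAT box, stood in 61.9% of member promoters and 41.1% of those of tested genes. TTTGAA, the cell cycle homology region, stood in 2 members (4.76%) and in 12% of tested genes. The 3 called members of largest untreated difference that hold E2F-like letters were TYMS (chr18:657403-657652, plus strand), GMNN (chr6:24775163-24775412, plus strand) and RFC3 (chr13:33817899-33818148, plus strand). They are shown to let the motif be read in place, 5′ to 3′ up to the base before the start, with the matched letters in capitals.
TYMS: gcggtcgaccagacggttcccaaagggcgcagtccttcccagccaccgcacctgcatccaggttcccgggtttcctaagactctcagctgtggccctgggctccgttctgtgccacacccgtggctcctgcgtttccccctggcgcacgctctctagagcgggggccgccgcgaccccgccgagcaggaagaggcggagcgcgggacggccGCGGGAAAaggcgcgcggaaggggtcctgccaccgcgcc
GMNN: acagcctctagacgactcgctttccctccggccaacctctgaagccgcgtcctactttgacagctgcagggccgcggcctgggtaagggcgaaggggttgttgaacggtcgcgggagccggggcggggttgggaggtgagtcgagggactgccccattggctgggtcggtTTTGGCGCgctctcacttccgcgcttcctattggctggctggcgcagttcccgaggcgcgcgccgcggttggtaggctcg
RFC3: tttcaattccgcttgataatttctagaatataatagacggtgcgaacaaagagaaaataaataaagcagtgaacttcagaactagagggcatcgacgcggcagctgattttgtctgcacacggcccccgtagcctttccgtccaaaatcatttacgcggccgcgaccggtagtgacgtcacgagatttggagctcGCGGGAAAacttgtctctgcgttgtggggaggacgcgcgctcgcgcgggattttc

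The match starts 39 bases before the start in TYMS, 80 in GMNN and 55 in RFC3, and in TYMS and RFC3 it is read on the other strand as TTTCCCGC. RRM2, PRIM1, TK1 and MCM10 had called differences larger than that of RFC3 and were passed over because their windows held no such letters. A match is a description of letters, not a bound site.

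All 5 nucleotide supply genes were called lower, and TYMS and RRM2 had the largest falls of the 48 members. RRM2, the regulated small subunit of ribonucleotide reductase, read 2000 and 2450 in untreated siCtrl, 686 and 679 in untreated siCYLD, and 3230 (siCtrl) and 4430 (siCYLD) with inhibitor. The untreated siCYLD arrays were thus far below all others, and RRM2 fell by 1.67 ± 0.12 on the log2 scale (± standard error, 2 arrays against 2), a 3.19-fold difference (adjusted p = 8.07e-07). TYMS, which makes dTMP, read 1260 and 1530 in untreated siCtrl, 455 and 394 in untreated siCYLD, and 2570 and 2360 with inhibitor. It fell by 1.68 ± 0.13 (adjusted p = 1.71e-06). TK1, the salvage kinase for thymidine, read 613 and 724 against 313 and 219, and 813 and 755 with inhibitor. Its fall was 1.30 ± 0.17 (adjusted p = 0.000144).

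The other nucleotide enzymes moved less. DUT, which removes dUTP, read 11600 and 10400 against 7000 and 6860 in untreated cells and 13700 and 12000 with inhibitor, a fall of 0.67 ± 0.09 (adjusted p = 0.000128). RRM1, the large reductase subunit, read 624 and 749 against 438 and 433, and 849 and 663 with inhibitor. It fell by 0.63 ± 0.14 (adjusted p = 0.00601), and without siCtrl replicate 2 its difference was -0.50 and no longer called (adjusted p = 0.0521). RRM1 and RRM2 encode subunits of the same enzyme, and their untreated differences were -0.63 and -1.67 on their own probe sets. No test compared them.

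Of 15 licensing genes, 12 were called lower in untreated siCYLD and 0 higher, with a median of -0.79. GMNN, the inhibitor of CDT1, had the largest fall of the role, from 598 and 635 to 234 and 206, with 682 and 556 in the inhibitor pair (1.42 ± 0.15 lower in untreated siCYLD, adjusted p = 1.82e-05). CDT1, the loading factor that geminin binds, fell from 2430 and 2140 to 1020 and 1110, with 3170 and 2890 in the inhibitor pair (-1.09 ± 0.11, adjusted p = 1.56e-05). The loading factor and its inhibitor were therefore both lower, with no overlap between the groups. CDC6, the ATPase that loads MCM2-7 with CDT1, read 167 and 232 against 117 and 90.2, and 301 and 327 with inhibitor (-0.84 ± 0.23, adjusted p = 0.0204). Its call was lost without siCtrl replicate 2 (-0.63, adjusted p = 0.15) and without siCYLD replicate 2 (-0.68, adjusted p = 0.0684).

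The 6 subunits of the MCM2-7 ring were each called lower, by 0.41 to 1.01. MCM7 read 3490 and 5040 in untreated siCtrl and 2110 and 2050 in untreated siCYLD, and 6820 and 4090 with inhibitor (-1.01 ± 0.14, adjusted p = 0.000207). MCM2 read 2370 and 2910 against 1420 and 1500, and 4500 and 3880 with inhibitor (-0.84 ± 0.12, adjusted p = 0.000185). MCM5 differed by -0.79, MCM4 by -0.78 and MCM3 by -0.66. The smallest difference was that of MCM6, from 1560 and 1920 to 1320 and 1280, with 2200 and 2320 in the inhibitor pair (-0.41 ± 0.12, adjusted p = 0.0289). That call was lost without siCtrl replicate 2 (-0.26, adjusted p = 0.196) and without siCYLD replicate 2 (-0.38, adjusted p = 0.0789). No test compared the sizes of the subunits' differences. The MCM5 call was also lost when _x_at and _s_at probe sets were dropped and its other probe set stood for it (-0.38, adjusted p = 0.154).

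All 6 subunits of the origin recognition complex lay below 0 in untreated siCYLD, and 3 were called. ORC6, its smallest subunit, read 3330 and 2700 in untreated siCtrl and 1160 and 1590 in untreated siCYLD, and 4900 and 2440 with inhibitor (-1.13 ± 0.14, adjusted p = 1e-04). ORC1, a cell cycle-regulated ATPase subunit, read 125 and 104 against 31.7 and 64, and 177 and 163 with inhibitor (-1.07 ± 0.33, adjusted p = 0.0339). ORC3 differed by -0.50 ± 0.17 (adjusted p = 0.0477). Neither of these calls was firm. That of ORC1 was lost without siCtrl replicate 1 (-0.96, adjusted p = 0.103), without siCtrl replicate 2 (-1.19, adjusted p = 0.0573) and without siCYLD replicate 1 (-0.70, adjusted p = 0.186). That of ORC3 was lost without siCtrl replicate 2 (-0.38, adjusted p = 0.24), siCYLD replicate 1 (-0.45, adjusted p = 0.14) or siCYLD replicate 2 (-0.55, adjusted p = 0.0674). The core subunits ORC2, ORC4 and ORC5 were not called. ORC2 read 1190 and 978 against 1020 and 1080, so that the groups overlapped, and its difference was -0.04 with a 95% interval of -0.31 to 0.24. ORC4 and ORC5 differed by -0.27 (-0.54 to -0.01) and -0.42 (-0.76 to -0.08).

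Among the genes that turn the loaded helicase on, 3 of 7 were called lower and 0 higher. MCM10, which helps activate the helicase, read 249 and 317 in untreated siCtrl and 135 and 90.7 in untreated siCYLD, and 529 and 451 with inhibitor (-1.23 ± 0.21, adjusted p = 0.00123). GINS1 read 2590 and 3470 against 1580 and 1660, and 5720 and 4630 with inhibitor (-0.88 ± 0.13, adjusted p = 0.00029). GINS3 differed by -0.73 ± 0.20 (adjusted p = 0.0229), and its call was lost without siCtrl replicate 2 (-0.65, adjusted p = 0.109) or siCYLD replicate 2 (-0.61, adjusted p = 0.0993), and with the mean of its probe sets (-0.47, adjusted p = 0.124). The dimmer genes of the role were less certain. CDC45 read 83.3 and 142 against 80 and 27.8, so that the groups barely separated, and differed by -0.95 with an interval of -1.76 to -0.13 (adjusted p = 0.093). GINS2 and GINS4 differed by -0.54 (-1.11 to 0.02) and -0.62 (-1.48 to 0.23). MCM8, an MCM paralogue known for recombination repair rather than for the replicative ring, read 245 and 223 against 256 and 194 and differed by -0.06 (-0.48 to 0.35).

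Polymerase genes differed by subunit. The primase subunit gene PRIM1 fell from 320 and 412 to 134 and 129 in untreated cells, and read 492 and 433 with inhibitor (-1.36 ± 0.18, adjusted p = 0.000158). POLE2, the second subunit of polymerase ε, fell from 272 and 335 to 124 and 128, and read 350 and 394 with inhibitor (-1.17 ± 0.19, adjusted p = 0.000728). POLE, the catalytic subunit of the same polymerase, read 874 and 769 against 837 and 826, with 1080 and 1090 in the inhibitor pair. Its untreated groups overlapped and it differed by 0.02, the only member above 0, with an interval of -0.25 to 0.29. The polymerase δ subunits POLD1 and POLD2 were not called either, at -0.37 (-0.67 to -0.06) and -0.17 (-0.41 to 0.08).

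Calls of the remaining polymerase genes were near the threshold. The polymerase α subunits POLA1 and POLA2 differed by -0.65 ± 0.19 (adjusted p = 0.0268) and -0.62 ± 0.19 (adjusted p = 0.0384), and POLD3 by -0.49 ± 0.14 (adjusted p = 0.024). Without siCYLD replicate 2 all 3 calls were lost, at -0.61 (adjusted p = 0.0811), -0.50 (adjusted p = 0.177) and -0.44 (adjusted p = 0.11). Without siCtrl replicate 1 they were also lost, at -0.54 (adjusted p = 0.131), -0.59 (adjusted p = 0.106) and -0.49 (adjusted p = 0.0585). POLA2 and POLD3 lost theirs without siCtrl replicate 2 as well, at -0.64 (adjusted p = 0.0951) and -0.48 (adjusted p = 0.0783). The POLA2 call was lost with the mean of its probe sets (-0.51, adjusted p = 0.138) and without _x_at and _s_at probe sets (-0.27, adjusted p = 0.515).

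The sliding clamp and its loader fell, with 5 of 6 genes called lower and 0 higher. PCNA, the clamp, read 865 and 1290 in untreated siCtrl and 561 and 652 in untreated siCYLD, and 1870 and 1660 with inhibitor (-0.79 ± 0.17, adjusted p = 0.00429). RFC3 had the largest fall of the loader, from 941 and 1120 to 458 and 408, with 1640 and 1330 in the inhibitor pair (-1.22 ± 0.13, adjusted p = 2.71e-05). RFC5 and RFC4 differed by -0.80 and -0.56. RFC1, the large loader subunit, differed by -0.56 ± 0.16 (adjusted p = 0.0203), and lost its call without siCtrl replicate 1 (-0.47, adjusted p = 0.102) or siCYLD replicate 1 (-0.53, adjusted p = 0.0579). RFC2 was not called, at -0.40 with an interval of -0.81 to 0.02.

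Of the genes for fragment maturation and single-stranded DNA binding, 4 of 5 were called lower and 0 higher. LIG1, the ligase that joins Okazaki fragments, read 417 and 369 against 203 and 221, and 448 and 380 with inhibitor (-0.84 ± 0.17, adjusted p = 0.00275). FEN1, the flap endonuclease, read 708 and 1010 against 487 and 502, and 1140 and 1040 with inhibitor (-0.76 ± 0.16, adjusted p = 0.00423). The RPA subunits RPA2 and RPA3 differed by -0.51 and -0.67 and were called, while RPA1 differed by -0.29 (-0.51 to -0.06) and was not. Without siCYLD replicate 2 the RPA2 and RPA3 calls were lost (-0.39, adjusted p = 0.195, and -0.38, adjusted p = 0.183), as they were without siCtrl replicate 2 (-0.47, adjusted p = 0.114, and -0.63, adjusted p = 0.061). The RPA2 call was lost without siCtrl replicate 1 too (-0.54, adjusted p = 0.0525).

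CHAF1A and CHAF1B encode subunits of the chaperone that deposits histones behind the fork. CHAF1A read 1270 and 1450 against 819 and 997, and 1520 and 1650 with inhibitor (-0.58 ± 0.13, adjusted p = 0.0065). CHAF1B was dim, at 98 and 141 against 75.8 and 19.9, and its difference of -1.22 ± 0.42 was not called (adjusted p = 0.0579).

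**Figure D2:**
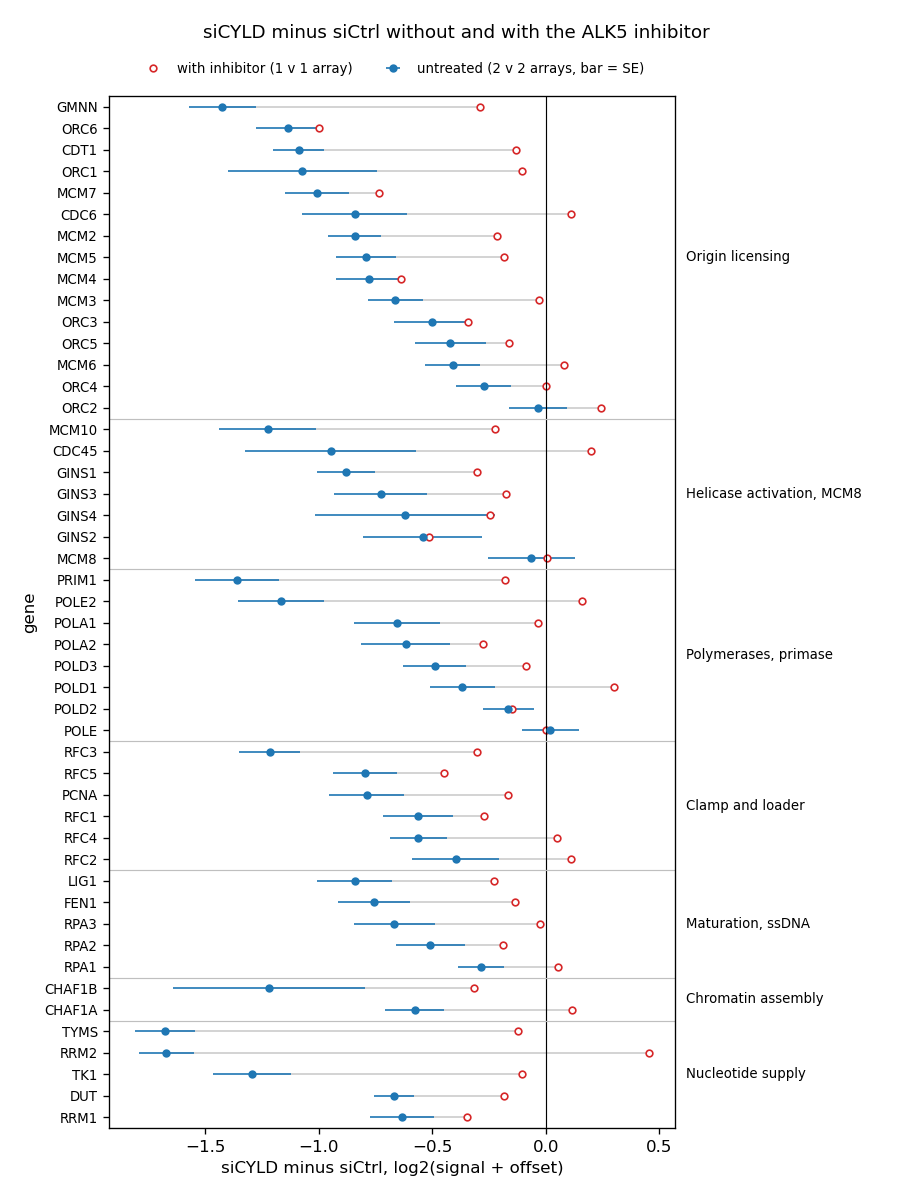
Log2 difference between siCYLD and siCtrl for each of the 48 genes (rows, by role), untreated (filled blue, bars are standard errors, 2 arrays against 2) and in the inhibitor pair (open red, 1 array each). Untreated differences had a median of -0.70 and those with inhibitor one of -0.16, and ORC6, MCM7, MCM4 and GINS2 lay below -0.5 in both.

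The ALK5 inhibitor raised most replication genes in siCYLD cells. The fit compared 1 inhibitor array with 2 untreated arrays for each siRNA and assumed that the lone array varied as duplicates did. In siCYLD cells 37 of 48 members were called higher and 0 lower (limma, adjusted p under 0.05, 43 higher and 0 lower at unadjusted p under 0.05), against 12.2% called higher and 10.2% called lower of all tested genes. The members' median was 0.98, and 0.02 over all genes, and 21 called members were at least 2-fold higher, a count not made over all genes. These differences share the untreated siCYLD arrays with the knockdown comparison above, so the 2 sets of calls are not independent. The ACTB 3'/5' ratio was 2.38 in the siCYLD inhibitor array, between the 2.26 and 2.48 of the untreated siCYLD arrays. With siCYLD replicate 2 as the only untreated array, whose labels agree, all 48 were higher with inhibitor, with a median of 0.97. Of all genes 48.1% were lower in that comparison, and their median was 0.02. Without the intensity trend 20 were called, as were 4.64% of all genes.

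RRM2 rose by 2.67 ± 0.15 with inhibitor in siCYLD cells, 6.37-fold (adjusted p = 1.91e-07), and TYMS rose by 2.44 ± 0.16 (adjusted p = 9.56e-07). These were the largest rises among the members. CDC45, the helicase cofactor, rose by 1.96 ± 0.46 (adjusted p = 0.00895), and MCM10 by 1.88 ± 0.26 (adjusted p = 0.000279). PRIM1, RFC3, ORC1, POLE2, CDC6 and GINS1 rose by 1.60, 1.58, 1.54, 1.53, 1.53 and 1.51. All 6 subunits of MCM2-7 rose, by 0.83 (MCM6) to 1.40 (MCM2).

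The 11 members that were not called in siCYLD cells came from 6 of the 7 roles. ORC4 differed by -0.03 with an interval of -0.35 to 0.30, the only member below 0. POLE, ORC2 and ORC5 differed by 0.38, 0.36 and 0.47, MCM8 and GINS2 by 0.62 and 0.52, and CHAF1B by 0.99. GINS4, at 1.42, had an adjusted p of 0.0517. RFC1, RPA3 and POLA1 differed by 0.26 (-0.15 to 0.67), 0.39 (-0.09 to 0.86) and 0.65 (0.14 to 1.15). The POLD3 and RPA1 calls, at 0.51 and 0.41, were lost without siCYLD replicate 1 (0.56, adjusted p = 0.0587, and 0.41, adjusted p = 0.0933) or siCYLD replicate 2 (0.46, adjusted p = 0.146, and 0.42, adjusted p = 0.0871). That of POLA2, at 0.79, was lost without siCYLD replicate 2 (0.68, adjusted p = 0.0941).

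In siCtrl cells the inhibitor raised part of the list, with helicase, loader and clamp genes among the called. There 14 of 48 were called higher and 0 lower (23 higher and 0 lower at unadjusted p under 0.05), against 5.02% called higher and 4.34% called lower of all genes, and the median was 0.46 against -0.0022 over all genes. The ACTB 3'/5' ratio was 3.67 in the siCtrl inhibitor array, above the 3.41 and 3.21 of the untreated siCtrl arrays, and its part in the result was not tested. The called genes were MCM2, MCM3, MCM4, MCM5, MCM7, CDT1, ORC6, GINS1, POLD2, PCNA, RFC3, RFC5, RRM2 and TYMS. GINS1 rose by 0.93 (adjusted p = 0.0028), TYMS by 0.88 (adjusted p = 0.00458), MCM4 by 0.84 (adjusted p = 0.0106) and PCNA by 0.81 (adjusted p = 0.0247). POLD2, an accessory subunit of polymerase δ, read 3280 and 4080 in untreated siCtrl and 6180 with inhibitor (0.75, adjusted p = 0.0044), and 3190 and 3330 against 5580 in siCYLD (0.77, adjusted p = 0.00152). RPA3, ORC4 and RFC1 were the 3 members below 0, at -0.26, -0.30 and -0.03.

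None of these siCtrl calls held under every alternative. With median centring of the arrays, which moved the all-gene median from -0.0022 to 0.10, 14 members were again called higher, while the share of all-gene calls that were higher went from 53.6% to 71.9%. With no filter on dim probe sets 5 were called, with the mean of probe sets 8, and without the intensity trend 0 (limma, 23 at unadjusted p under 0.05). Of all genes 1.23%, 3.42% and 0.0773% were called higher in those fits. Without siCtrl replicate 1 the calls of MCM5 (0.55, adjusted p = 0.0645), MCM7 (0.43, adjusted p = 0.0521), PCNA (0.53, adjusted p = 0.0729), RFC3 (0.54, adjusted p = 0.0776), RFC5 (0.50, adjusted p = 0.138) and RRM2 (0.40, adjusted p = 0.123) were lost. Without siCtrl replicate 2 those of CDT1 (0.38, adjusted p = 0.111) and ORC6 (0.55, adjusted p = 0.057) were lost.

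**Figure D3:**
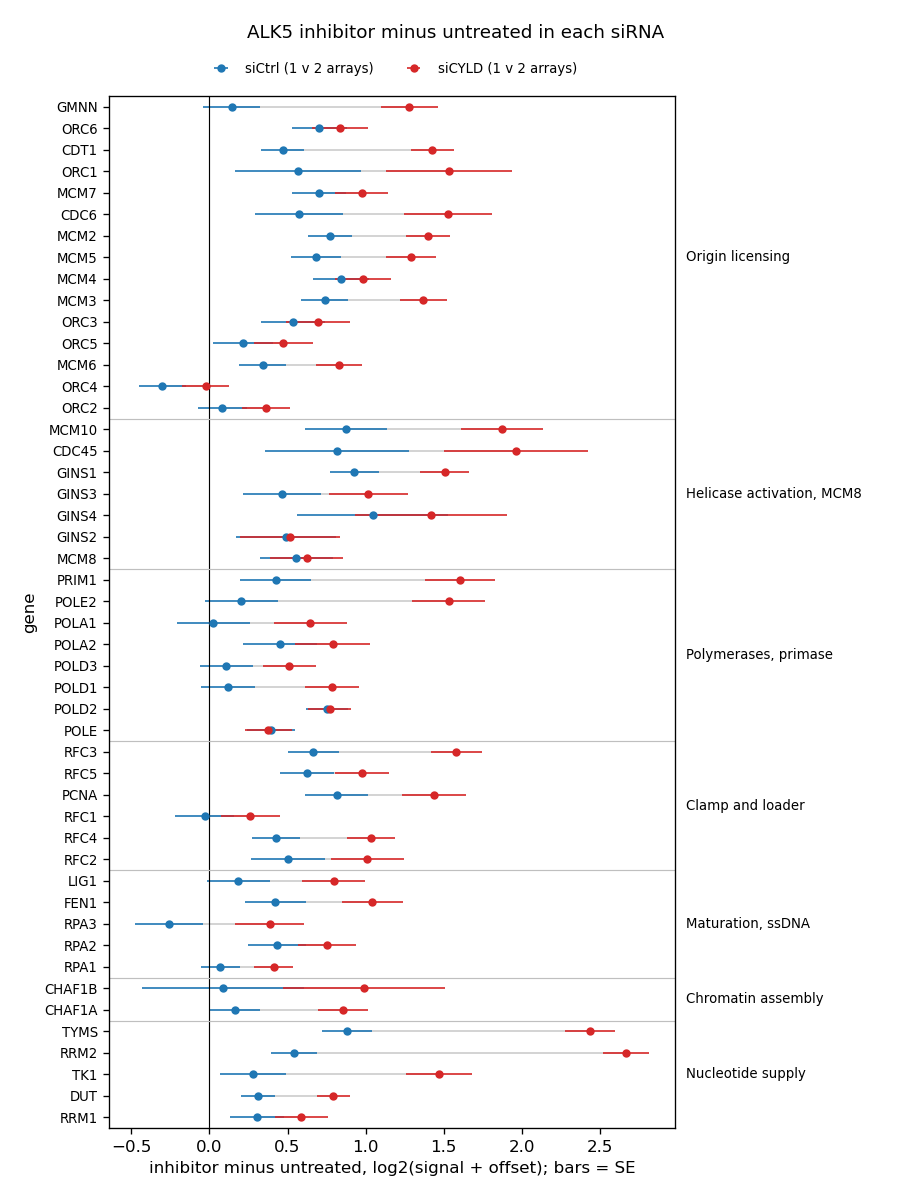
Log2 difference between inhibitor and untreated arrays for each gene (rows, by role) in siCtrl (blue) and siCYLD (red), with standard errors from the limma fit of 1 array against 2. Medians were 0.46 in siCtrl and 0.98 in siCYLD, with RRM2 and TYMS farthest to the right in siCYLD.

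Averaged over both siRNAs in the additive model, 36 members rose with inhibitor and 0 fell (42 and 0 at unadjusted p under 0.05), against 11.2% and 8.82% of all genes. GINS4, 1 of the 36, passed the expression filter only through its inhibitor arrays, and without it 35 of 47 rose. MCM2 rose by 1.09 (adjusted p = 0.000744), GINS1 by 1.22 (adjusted p = 0.000452) and POLD2 by 0.76 (adjusted p = 0.000911). For 41 members, GINS4 again among them, each inhibitor array lay above both untreated arrays of its siRNA, an order shown by 26% of all genes. Without the siCYLD inhibitor array the members' median went from 0.74 to 0.46, and that of all genes from 0.0062 to -0.0019. Without siCtrl replicate 1 these medians were 0.72 and 0.011. The count of called members fell from 36 to 17 without the intensity trend. It was 23 with no filter, and 23 of 35 tested once probe sets of the _x_at and _s_at types were dropped. Of all genes 4.61% were called higher without the intensity trend, 5.11% with no filter and 9.5% without those probe sets.

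With the inhibitor present, most members differed by less than 0.5 between the siCYLD and siCtrl arrays. This pair has 1 array each and no test. Its ACTB 3'/5' ratios were 2.38 and 3.67, and its GAPDH 3'/5' ratios 1.97 and 1.87. Its median log2 difference was -0.16 over the members and -0.0071 over all genes, with 34 members below 0 and 14 above. For 47 of 48 members its absolute size was smaller than in untreated cells. These member counts were not made over all genes. Of the members 4, namely ORC6 (-1.0), MCM7 (-0.73), MCM4 (-0.64) and GINS2 (-0.51), lay below -0.5, as did 13% of all genes. On the probe sets used none lay above 0.5, as 13.8% of all genes did, and RRM2 came nearest at 0.46. RRM2 was the only nucleotide supply gene of the 48 above 0 on the probe set used. Its highest signal of all arrays, 4430, was in siCYLD with inhibitor. The other kept probe sets of these genes gave 0.64 (RRM2), 0.62 and -0.24 (DUT), 0.37 (RRM1), 0.20 (TK1) and 0.08 (TYMS). The other kept GINS2 probe set gave 0.57. GMNN and TYMS differed by -0.29 and -0.12.

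Whether the siCYLD difference changed with inhibitor was tested as an interaction. Of the 48 members 4 were called, each as a smaller deficit or a gain with inhibitor, and 0 in the other direction (21 and 0 at unadjusted p under 0.05), against 0.982% and 0.688% of all genes. RRM2 went from -1.67 untreated to 0.46 with inhibitor (2.13 ± 0.21, adjusted p = 0.000254). TYMS went from -1.68 to -0.12 (1.56 ± 0.23, adjusted p = 0.00459), CDT1 from -1.09 to -0.13 (0.96 ± 0.19, adjusted p = 0.0254) and GMNN from -1.42 to -0.29 (1.14 ± 0.26, adjusted p = 0.0464). Without siCtrl replicate 2 the GMNN interaction was 1.09 and not called (adjusted p = 0.0697). The members' median interaction was 0.48 in that fit. It was 0.62 without siCtrl replicate 1, 0.53 without siCYLD replicate 1 and 0.51 without siCYLD replicate 2. Over all genes the medians of these fits were 0.035, 0.022, 0.027 and 0.013 in that order. Without the intensity trend 0 were called (limma, 13 at unadjusted p under 0.05), and 0 of all genes were.

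Interactions of the other members ranged from -0.02 (POLE) to 1.33 (POLE2, adjusted p = 0.0708). That of ORC6 was 0.13 with an interval of -0.41 to 0.67, and those of MCM7 and MCM4 were 0.27 (-0.25 to 0.80) and 0.14 (-0.40 to 0.68). These intervals include 0 and reach 0.67 or more, so equal and unequal responses to the inhibitor were not separated for these genes.

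**Figure D4:**
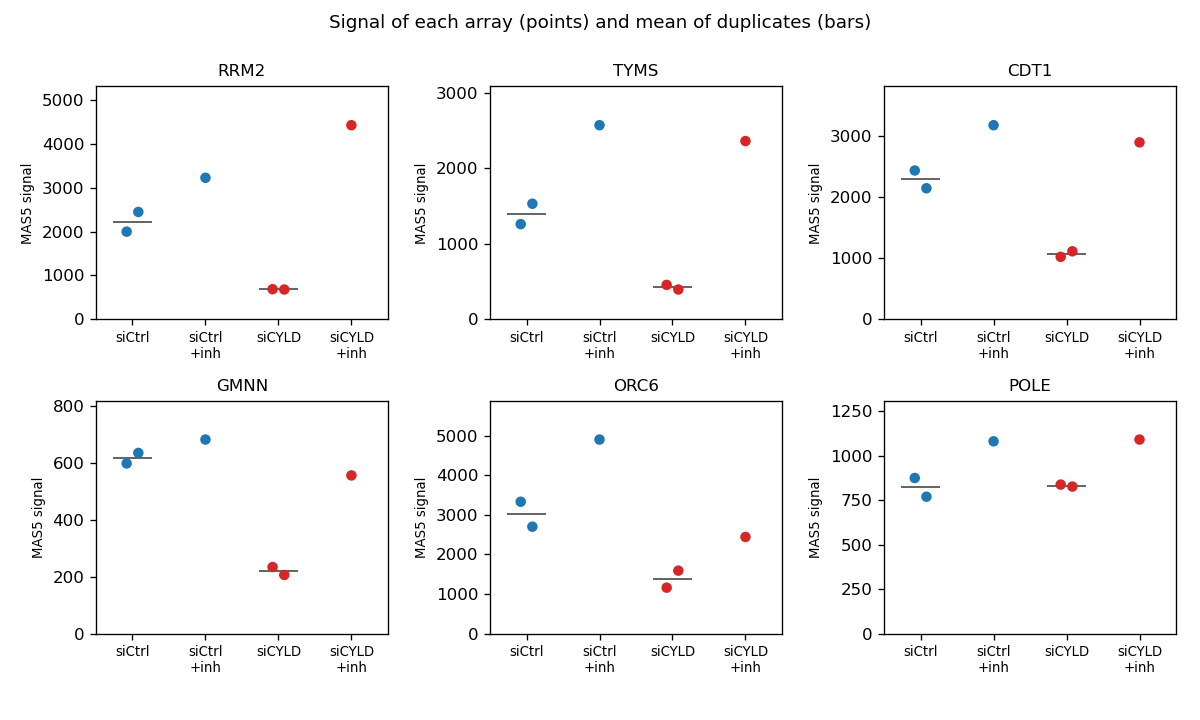
MAS5 signal of RRM2, TYMS, CDT1, GMNN, ORC6 and POLE on each array (points, linear axes from 0), with the mean of the untreated duplicates as a bar. For the first 4 genes the siCYLD signal went from the lowest of the arrays to 4430, 2360, 2890 and 556 with inhibitor, ORC6 stayed lower in siCYLD with inhibitor (2440 against 4900), and the untreated POLE arrays overlapped.

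Several probe sets read most members. The 48 genes had 93 probe sets, of which 81 passed the filter, and 78 of the 81 were below 0 for the untreated knockdown. Of the 33 that did not represent their gene, 31 had the sign of the representing probe set. The exceptions were a GINS2 probe set at 0.74, with siCtrl signals of 119 and 31.5 and siCYLD signals of 118 and 117, and an RPA1 probe set at 0.23 with signals of 41.9 to 94.7. For RRM2, TK1 and CDT1 the other kept probe set differed by -1.66, -1.49 and -1.36, against the -1.67, -1.30 and -1.09 of those used. Other probe sets gave smaller differences for MCM5 (-0.38 against -0.79), GINS3 (-0.21 against -0.73), RFC5 (-0.38 against -0.80) and POLA2 (-0.27 against -0.62). One of the 3 RFC5 probe sets differed with inhibitor by -0.11 in siCtrl and -0.03 in siCYLD, while those of the probe set used were 0.63 and 0.98. With inhibitor in siCtrl cells, the second RRM2 probe set differed by 0.08 and the one used by 0.54.

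Related genes from wider lists were examined beside the members. Of 25 other genes of origin firing and the fork, 13 (52%) were called lower in untreated siCYLD and 0 higher, against 11.8% and 9.49% of all genes. The largest were DSCC1, a subunit of an alternative clamp loader (-1.57 ± 0.14), TICRR, an initiation factor (-1.08 ± 0.21), and RNASEH2A, an RNase H2 subunit (-1.04 ± 0.21). In siCYLD cells the inhibitor raised 13 of them (52%) and lowered 2 (8%), against 12.2% and 10.2% of all genes, with DSCC1 at 2.02, RNASEH2A at 1.53 and the initiation kinase gene CDC7 at 1.45. In siCtrl cells 3 rose (12%) and 1 fell (4%), against 5.02% and 4.34% of all genes, CHTF18 and DSCC1 at 1.27 and 0.69 and the polymerase δ subunit gene POLD4 at -0.87. The DSCC1 interaction was called (1.32, adjusted p = 0.0165), as 1 of the 25.

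Histone chaperone and maintenance methylation genes were called in the same directions. Of 12, 6 (50%) were called lower in untreated siCYLD, against 11.8% of all genes, and 0 higher, led by the chaperone gene ASF1B (-1.51 ± 0.12), UHRF1, which recruits the maintenance methyltransferase (-1.25 ± 0.11), and HAT1 (-0.62 ± 0.15). In siCYLD cells 8 rose with inhibitor (66.7%, against 12.2% of all genes) and 0 fell, with ASF1B at 1.86, UHRF1 at 1.60 and HELLS at 0.91. In siCtrl cells 2 rose (16.7%, against 5.02% of all genes), ASF1B (0.54) and HELLS (0.50). The interactions of ASF1B (1.31, adjusted p = 0.00622) and UHRF1 (1.28, adjusted p = 0.00486) were called.

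Among 22 genes of E2F and its regulators, 6 (27.3%) were called lower in untreated siCYLD and 1 (4.55%) higher, against 11.8% and 9.49% of all genes. E2F8, MYBL2 and RBL1 were the largest, at -1.96 ± 0.44, -1.79 ± 0.17 and -0.97 ± 0.17. E2F1 itself differed by -0.40 and was not called (adjusted p = 0.238), and E2F3 was the gene called higher, at 0.37 (named after its value was seen). With inhibitor in siCYLD cells 8 rose (36.4%, against 12.2% of all genes) and 0 fell, with MYBL2 at 2.06, E2F8 at 1.70 and E2F2 at 1.61. In siCtrl cells 1 of the 22 was called higher, CDC25A (1.10), a share of 4.55% near the 5.02% of all genes. The MYBL2 interaction was called (1.64, adjusted p = 0.0126).

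Other nucleotide synthesis genes were called in untreated siCYLD about as often as all genes. Of 33, 30 were tested, and 4 were called lower and 3 higher, 13.3% and 10% against 11.8% and 9.49% of all genes, with a median of -0.11. The largest were the folate enzyme gene MTHFD1 (-0.67 ± 0.15), the mitochondrial thymidine kinase gene TK2 (0.66 ± 0.17) and the dTMP kinase gene DTYMK (-0.50 ± 0.12). With inhibitor in siCYLD cells 18 of the 30 rose (60%) and 2 fell (6.67%), against 12.2% and 10.2% of all genes, MTHFD1 at 1.65, the purine synthesis gene PFAS at 1.26 and the pyrophosphatase gene DCTPP1 at 1.22. In siCtrl cells 7 rose (23.3%, against 5.02% of all genes) and 0 fell, with MTHFD1 at 0.71, NME1 at 0.64 and PFAS at 0.63. The DCTPP1 interaction was called (1.07, adjusted p = 0.0192). No test compared the lists.

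**Figure D5:**
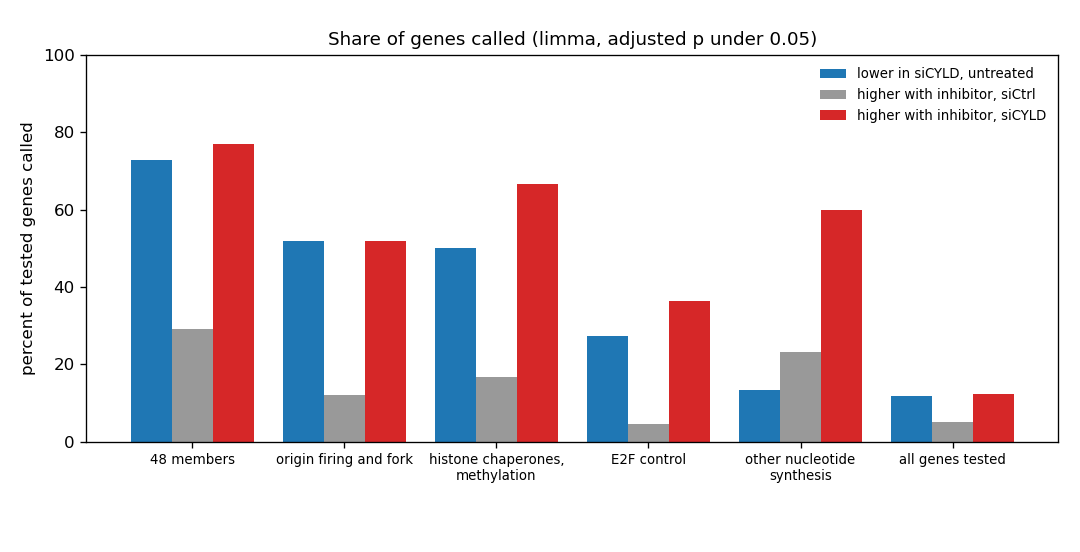
Percent of tested genes called (limma, adjusted p under 0.05) as lower in untreated siCYLD (blue), higher with inhibitor in siCtrl (grey) and higher with inhibitor in siCYLD (red), for the 48 members, 4 related lists and all 12935 genes. Members stood at 72.9%, 29.2% and 77.1%, all genes at 11.8%, 5.02% and 12.2%, and other nucleotide synthesis genes at 13.3%, 23.3% and 60%.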

How the data were processed

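RNA of 6 SAS samples was measured on Affymetrix arrays. The authors deposited 1 intensity per probe set and array; the submitters' processing notes name MAS5. Its version, like the genome build, is not given in the sources used here. On each array the trimmed mean (2% off each end) was 500.1, and arrays carry no read depth. The annotation gave 41091 of 54675 probe sets 1 symbol, 1801 several and 11721 none. Before taking log2, 16.06, the 20th percentile of all deposited intensities, was added to each. Fold changes are on this scale and understate those of dim genes. Each gene was read by its brightest kept probe set. Models of 4 group means, and an additive model for the inhibitor across siRNAs, were fitted over all genes with limma 3.58.1 in R 4.3.3, with an intensity trend and Benjamini-Hochberg adjustment, two-sided. The scripts were tested on simulated data.

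The members and gene lists were chosen with earlier results of these data known. All 48 members were named, and of the related lists the 3 called genes of largest difference per list and comparison. The values under other offsets, scalings, filters, probe set choices, moderation, groupings and sets of arrays are given at the end. Figures were drawn with matplotlib 3.10.9.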

Additional observations from a re-analysis of the deposited data

Results flagged for a closer look

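Interactions of 4 members were noted because the siCYLD difference with inhibitor differed from that without it in the limma test of the difference itself. RRM2, the small subunit of ribonucleotide reductase, had an interaction of 2.13 on the log2 scale (adjusted p = 0.000254). TYMS, thymidylate synthase, had 1.56 (adjusted p = 0.00459), the licensing factor gene CDT1 0.96 (adjusted p = 0.0254) and its inhibitor GMNN 1.14 (adjusted p = 0.0464). Each rests on 1 inhibitor array per siRNA. Untreated groups of 2 arrays are too small to look for an array apart from its group.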

How the results depend on the processing

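Some counts of called members changed by over 1.5 times between settings, and the cause was not tested except where fewer genes or arrays entered. For the siRNA difference, the additive models estimate a value shared by untreated and inhibitor arrays. Their counts therefore do not concern untreated cells alone. For lower signals in untreated siCYLD (35 of 48), counts were 23 without _x_at and _s_at probe sets, which left 35 members, 18 with no intensity trend, 6 in the additive model without both arrays of conflicting labels, 0 by source name and 22 in the additive model of all 6 arrays, an alternative chosen after seeing the data. For the inhibitor in siCtrl (14), counts were 5 with no filter, 8 with the mean of probe sets and 0 with no intensity trend. In siCYLD (37) the count was 20 with no intensity trend. Across siRNAs (36) it was 23 with no filter, 23 without _x_at and _s_at probe sets and 17 with no intensity trend. For the interaction (4) it was 2 with median centring, 1 with no filter and 0 with no intensity trend. The share of all genes called in the same direction fell too. With no intensity trend it was 4.97%, 0.0773%, 4.64%, 4.61% and 0% for these comparisons in that order. With no filter it was 5.08%, 1.23%, 5.12%, 5.11% and 0.0708%. All-gene shares also changed from fit to fit when an array was left out. Leaving out each array in turn gave 25 to 36, 10 to 15, 35 to 39, 14 to 36 and 3 to 11 called members for these comparisons in that order. In each of these fits 0 members were called in the opposite direction.

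By source name, differences of 21 called members turned positive with adjusted p = 0.999, namely CDC6 0.054, CHAF1A 0.23, FEN1 0.27, GINS1 0.24, MCM2 0.19, MCM3 0.16, MCM4 0.30, MCM5 0.051, MCM6 0.12, MCM7 0.24, ORC1 0.26, ORC3 0.17, ORC6 0.071, PCNA 0.39, POLE2 0.16, PRIM1 0.15, RFC3 0.041, RFC5 0.18, RRM1 0.12, RRM2 0.14 and TYMS 0.035. RFC5 across siRNAs was -0.027 without the siCtrl inhibitor array, where another probe set became the brightest, and up to 0.88 without another array. With replicate number as a replicate block, 39 of 47 tested members were called lower, against 32 of 47 in the same 4 untreated arrays without it. Of all genes 16.6% were called lower with the block and 12.7% without it. Deviations of same-numbered arrays correlated at 0.0447 over 12935 genes, so the numbers were not taken to pair the arrays. Offsets, quantile normalization, the stricter filter and robust moderation kept every count of called members within 1.5 times. The number of arrays limits the precision, and dim members such as CDC45, CHAF1B, ORC1 and GINS4 had the widest intervals.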
